A study of Arabidopsis thaliana with 6 samples.

Results

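Starch, sucrose and sugar response genes were followed in cotyledons of Arabidopsis thaliana (ecotype Col-0) through 6 genes. They were APL3 (AT4G39210), SBE2.2 (AT5G03650) and DPE1 (AT5G64860) of starch metabolism, ATSPS4F (AT4G10120) of sucrose synthesis, the sugar transporter gene SWEET2 (AT3G14770) and the sugar-repressed gene AT3G15450. They are 6 of the 13286 genes named on an array of 22746 probe sets, and were chosen for their signals across the genotypes of this experiment (1 value per gene, from its brightest probe set), so their differences between genotypes are given as a description, without a test. Each of the 6 had 1 probe set on the array, and all 6 were among the 14785 probe sets bright enough to be tested. Cotyledons came from the double mutant sicy-192 gun1-101, from sicy-192 and from the wild type, with 2 arrays per genotype. The double mutant carries the sicy-192 mutation as well, and no gun1-101 single mutant was analysed here. All plants were 4 days old and had been raised on MS medium with 100 mM sucrose, with days of 16 h (25 °C, light of 100 µmol per m2 and s) and nights of 8 h (22 °C). The sucrose supply was thus shared by the wild type, and no plants on a lower sugar supply were analysed here. The plastid invertase gene and GUN1, the genes to which the mutations are assigned, have no named probe set in the gene table used, so their signals do not check the genotype labels.

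Plant cells keep carbon from photosynthesis mainly as starch within the plastid and as sucrose for storage in the vacuole and for export. ADP-glucose pyrophosphorylase makes the glucosyl donor of starch, synthases and branching enzymes build the granule, and amylases and disproportionating enzymes dismantle it. Sucrose phosphate synthase carries out the regulated step of sucrose synthesis in the cytosol, invertases and sucrose synthases cleave sucrose, and SWEET, SUC and monosaccharide carriers move the sugars across membranes. Sugar supply also acts as a signal that raises the transcripts of some of these genes and lowers those of others. The allele in sicy-192, named for cotyledons that turn yellow on sugar, alters a neutral invertase of the plastid so that it gains activity, and GUN1 is a pentatricopeptide repeat protein through which plastids signal to the nucleus.

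Signals below are linear array intensities after scaling, and differences are on the log2(signal + 16) scale with the standard error (SE) of a limma fit to all 6 arrays. Tissue markers were few. Of 8 listed genes of photosynthetic leaf or cotyledon cells 4 were named on the array (RCA, PRK, LHCB4.2 and PSAN). Their summed signal was 47805 to 58843 in the double mutant, 25092 to 33652 in sicy-192 and 78527 to 107258 in wild type. EXPA7, the only named root marker of 9 listed, had at most 28.0 on any array, and CLV3, the only named shoot meristem marker of 4 listed, at most 12.8. None of the 9 seed reserve or 3 phloem markers was named. The 2 named guard cell markers, FMA and SPCH, summed to 242 to 249 in the double mutant, 214 to 217 in sicy-192 and 258 to 302 in wild type. FMA had means of 75.5, 86.3 and 152 in the double mutant, sicy-192 and wild type, and SPCH 170, 129 and 128. FMA was thus highest in wild type and SPCH in the double mutant, which their sum hides. The photosynthetic markers thus differed between genotypes in the same order as ATSPS4F, and their part in the differences below was not tested. In RNA from cotyledons, fewer cells of a type and less RNA per cell cannot be told apart. Replicates of a genotype correlated at r = 0.983 in the double mutant, 0.979 in sicy-192 and 0.980 in wild type, across probe sets, which are not independent. The 6 probe sets of the bioB hybridisation spike read 210.03 to 538 on the replicate 1 arrays and 21.5 to 81.7 on the replicate 2 arrays, so differences within each replicate number are also given. The control for 25S ribosomal RNA read 7778 and 8361 in the double mutant, 1378 and 1173 in sicy-192, and 452 and 1763 in wild type. Its part in the results was not tested.

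The 6 genes followed 3 patterns over the genotypes. APL3 was highest in sicy-192 and overlapped between the double mutant and wild type. ATSPS4F, SWEET2 and AT3G15450 were lowest in sicy-192, and wild type and the double mutant both lay above it. SBE2.2 and DPE1 were highest in wild type and lowest in the double mutant. For SBE2.2 the step from sicy-192 to the double mutant was only -0.16 ± 0.14, so its lowest place is not resolved. Between sicy-192 and wild type the arrays did not overlap for any of the 6 genes, with 1 higher and 5 lower, while 63.7% of all probe sets tested were apart in that comparison (42.6% higher and 21.1% lower). Between the double mutant and sicy-192 all 6 genes were apart, 3 higher and 3 lower, against 62.4% of probe sets (27.6% higher and 34.8% lower). Between the double mutant and wild type 4 were apart, 1 higher and 3 lower, against 66.8% of probe sets (37.9% higher and 28.9% lower). With 2 arrays per genotype such separation was common on the whole array. The 6 genes were chosen on these values, so nothing is read from their count.

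**Figure D1:**
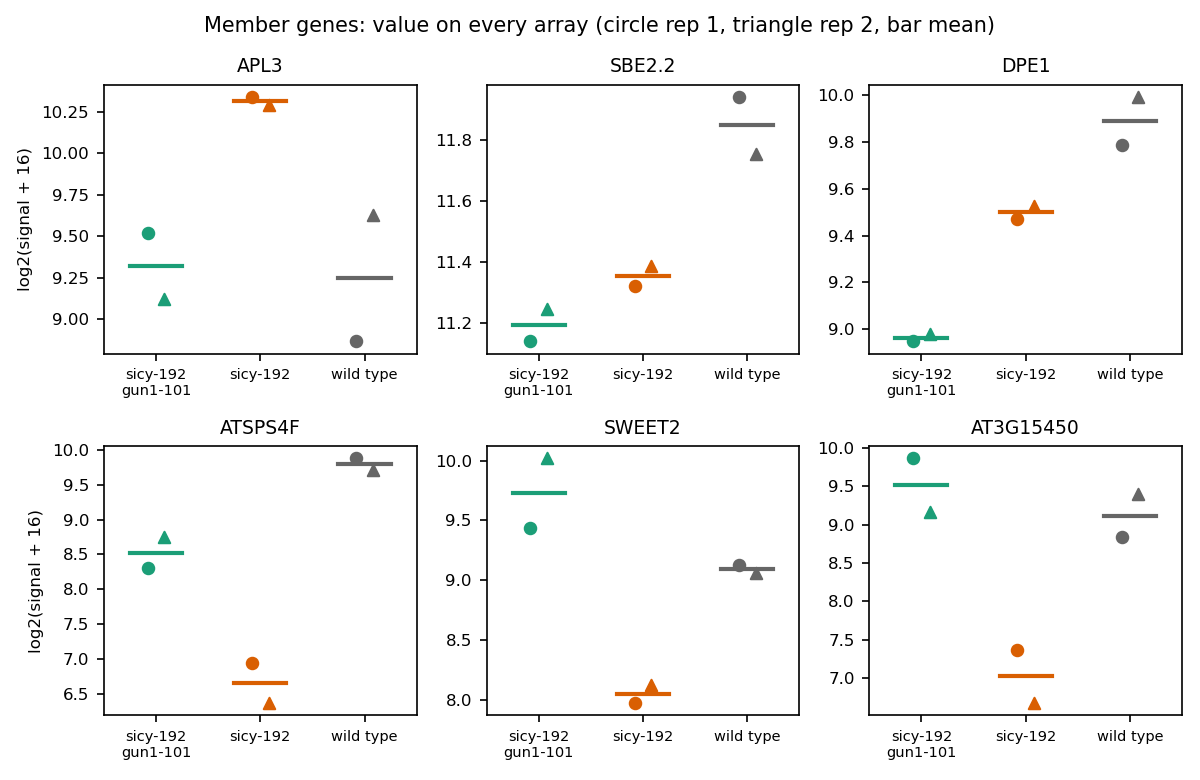
Each panel plots 1 gene's log2(signal + 16) on every array (circle replicate 1, triangle replicate 2) with the mean of the 2 arrays as a bar, for sicy-192 gun1-101, sicy-192 and wild type. APL3 peaks in sicy-192, while ATSPS4F, SWEET2 and AT3G15450 are lowest there. DPE1 is lowest in the double mutant, and so is SBE2.2 by a small margin. Vertical axes differ between panels.

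APL3 encodes a large subunit of ADP-glucose pyrophosphorylase, and its transcript is known to respond to sugars. APL3 signals were 718 and 541 in the double mutant, 1281 and 1239 in sicy-192, and 451 and 775 in wild type. Both sicy-192 arrays lay above all other arrays, while the double mutant's values fell inside the range spanned by wild type. The means were 629 ± 125 in the double mutant, 1260.15 ± 29.4 in sicy-192 and 613 ± 229 in wild type (SD, n = 2 each), so the order of the last pair is not resolved by their spread. The difference in APL3 was 1.07 ± 0.24 (SE) for sicy-192 minus wild type, a ratio of mean signals of 2.06. It was 1.47 within replicate 1 and 0.67 within replicate 2. For the double mutant minus sicy-192 the difference was -1.0 ± 0.24, with -0.82 and -1.17 within the replicate numbers. For the double mutant minus wild type it was 0.07 ± 0.24, and its sign differed between replicate 1 (0.65) and replicate 2 (-0.51). Of the 3 genotypes wild type had the widest spread between its arrays.

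SBE2.2 encodes a starch branching enzyme, which introduces the branch points of amylopectin. Its signals were 2240.3 and 2412 in the double mutant, 2541 and 2659 in sicy-192, and 3915 and 3439 in wild type. The 3 genotypes did not overlap, and wild type stood further from sicy-192 than sicy-192 did from the double mutant. The means were 2326 ± 121, 2600.3 ± 83.4 and 3677 ± 336 for the double mutant, sicy-192 and wild type in turn. SBE2.2 differed by -0.49 ± 0.14 for sicy-192 minus wild type (-0.62 within replicate 1, -0.37 within replicate 2). It differed by -0.16 ± 0.14 for the double mutant minus sicy-192, a size close to the SE, so these neighbours were hardly separated. The difference for the double mutant minus wild type was -0.66 ± 0.14, or 0.633 as a ratio of mean signals.

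DPE1 encodes the plastid disproportionating enzyme, which reuses the short maltooligosaccharides left by starch breakdown. DPE1 read 478 and 489 in the double mutant, 695 and 721 in sicy-192, and 868 and 1003 in wild type. Here, too, the genotypes did not overlap, but the steps between neighbours were more even than for SBE2.2. The means were 484 ± 7.84 in the double mutant, 708 ± 18.8 in sicy-192 and 936 ± 95.8 in wild type. The difference was -0.39 ± 0.14 for sicy-192 minus wild type (-0.31 and -0.47 within the replicate numbers). It was -0.53 ± 0.14 for the double mutant minus sicy-192 (-0.52 and -0.55). Together these placed the double mutant at 0.517 times the wild-type signal, a difference of -0.93 ± 0.14. All probe sets tested had a median difference of 0.16 for sicy-192 minus wild type, so relative to that median SBE2.2 stood at -0.65 and DPE1 at -0.55 in that comparison. The same step enlarged ATSPS4F (-3.30), SWEET2 (-1.21) and AT3G15450 (-2.25) in size and reduced APL3 to 0.91. Relative to the median for the double mutant minus sicy-192, SBE2.2 stood at -0.11 and DPE1 at -0.48.

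ATSPS4F encodes a sucrose phosphate synthase of the family's leaf-expressed branch, and it showed the widest range of the 6 genes. Its signals were 301 and 414 in the double mutant, 107 and 66.6 in sicy-192, and 928 and 822 in wild type. All 3 genotypes were apart, with the double mutant between sicy-192 and wild type. The means were 357 ± 79.6 in the double mutant, 86.7 ± 28.5 in sicy-192 and 875 ± 74.9 in wild type (SD, n = 2 each). In sicy-192 the ATSPS4F signal was 0.099 times that of wild type, a difference of -3.14 ± 0.23 (-2.94 within replicate 1, -3.34 within replicate 2). In that comparison 0.277% of the probe sets tested differed by more in size. This share was 7.43% for APL3, 31.6% for SBE2.2, 42.2% for DPE1, 7.84% for SWEET2 and 1.35% for AT3G15450. The genes were chosen for their values, so nothing is read from these shares. In the double mutant the ATSPS4F signal was 4.12 times that of sicy-192, a difference of 1.87 ± 0.23 (1.37 and 2.38 within the replicate numbers). It remained below wild type, at -1.27 ± 0.23. With 64 in place of 16 added before the log2, the difference between sicy-192 and wild type was -2.65, since the sicy-192 signal is dim.

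SWEET2 encodes a SWEET carrier of the vacuolar membrane that has been studied mainly in roots. Its signals were 677 and 1022 in the double mutant, 235 and 263 in sicy-192, and 544 and 516 in wild type. Each genotype stood apart, and SWEET2 was the only one of the 6 genes with both double mutant arrays above both wild-type arrays. The means were 849.6 ± 244.5 in the double mutant, 249 ± 19.3 in sicy-192 and 530.1 ± 19.9 in wild type. The difference was -1.05 ± 0.20 for sicy-192 minus wild type (-1.16 and -0.93 within the replicate numbers). It was 1.68 ± 0.20 for the double mutant minus sicy-192 (1.46 and 1.90). For the double mutant minus wild type it was 0.64 ± 0.20, ranging between 0.31 within replicate 1 and 0.96 within replicate 2. Of the 3 genotypes the double mutant had the widest spread between its arrays.

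AT3G15450 is known as a gene whose transcript falls when sugar is supplied. Its signals were 915 and 559 in the double mutant, 149 and 86.5 in sicy-192, and 441 and 657 in wild type. The sicy-192 arrays lay below all others, whereas the double mutant and wild type overlapped. The means were 737 ± 252 in the double mutant, 118 ± 44.4 in sicy-192 and 549 ± 153 in wild type. AT3G15450 differed by -2.09 ± 0.30 for sicy-192 minus wild type, a ratio of 0.215 (-1.47 within replicate 1, -2.71 within replicate 2). For the double mutant minus sicy-192 the difference was 2.49 ± 0.30, nearly equal within both replicate numbers. For the double mutant minus wild type it was 0.40 ± 0.30, with 1.03 within replicate 1 and -0.23 within replicate 2, so neither order of these genotypes is resolved.

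**Figure D2:**
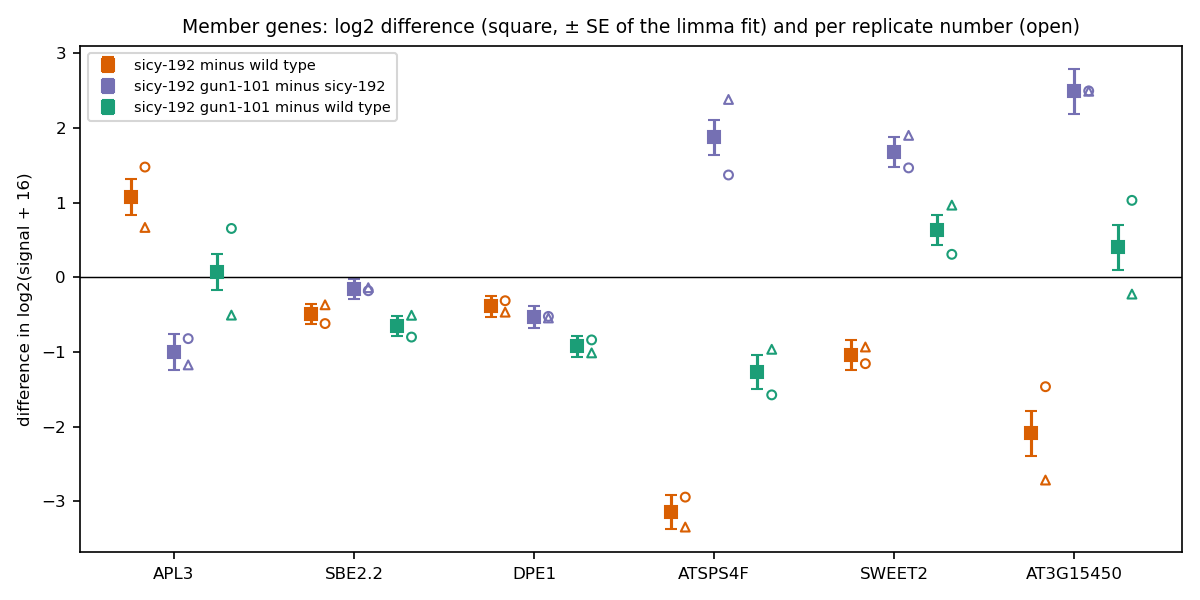
The squares give each gene's difference in log2(signal + 16) for sicy-192 minus wild type, sicy-192 gun1-101 minus sicy-192 and sicy-192 gun1-101 minus wild type, with bars of ± SE of the limma fit. Open circles and triangles beside them give the difference within replicate 1 and replicate 2, which straddle 0 for APL3 and AT3G15450 in the comparison of the double mutant with wild type.

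The comparisons share arrays (the sicy-192 arrays enter the first and the second), so a low value in sicy-192 enters both with opposite sign. Side by side, the difference in sicy-192 and the following difference in the double mutant were 1.07 and -1.0 for APL3, -3.14 and 1.87 for ATSPS4F, -1.05 and 1.68 for SWEET2, and -2.09 and 2.49 for AT3G15450. SBE2.2 (-0.49 and -0.16) and DPE1 (-0.39 and -0.53) had the same sign in both. Among the members' profiles, each taken relative to its own mean over the 6 arrays, SBE2.2 and DPE1 were the closest pair, with a root mean square difference of 0.20. SWEET2 and AT3G15450 were 0.65 apart, and APL3 and ATSPS4F the farthest, at 1.80. APL3 and DPE1, of different patterns, were 0.64 apart, and ATSPS4F and SWEET2, of the same pattern, 0.97. This measure thus depends on the size of the differences as well as on their order.

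The other genes of these pathways were taken from 9 lists that cover 200 loci besides the 6 genes. The gene table names 50 of the 200 on the array, and 33 of these were bright enough to be tested, so most enzymes of the pathways are not represented. In sicy-192 against wild type 6 of the 33 rose and 2 fell (24.2%, against 23.0% of all probe sets tested, 13.8% higher and 9.21% lower, at an adjusted p under 0.05 in limma). After centring each array on its median, 4 rose and 4 fell. In the double mutant against sicy-192 1 rose and 5 fell (18.2%, against 20.7% of all probe sets, 9.54% higher and 11.2% lower), or 2 and 4 after such centring. In the double mutant against wild type 2 rose and 4 fell (18.2%, against 30.1% of all probe sets, 17.3% higher and 12.8% lower). The median difference of the 33 genes was 0.06 in the first comparison (0.16 over all probe sets tested), -0.17 in the second (-0.05) and -0.00 in the third (0.07). Over the 33 genes together the shares called were thus near or below that of the whole array, while single lists of few tested genes lay on either side of it. Where 3 differences of a gene are given together below, they stand in this order of the comparisons.

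**Figure D3:**
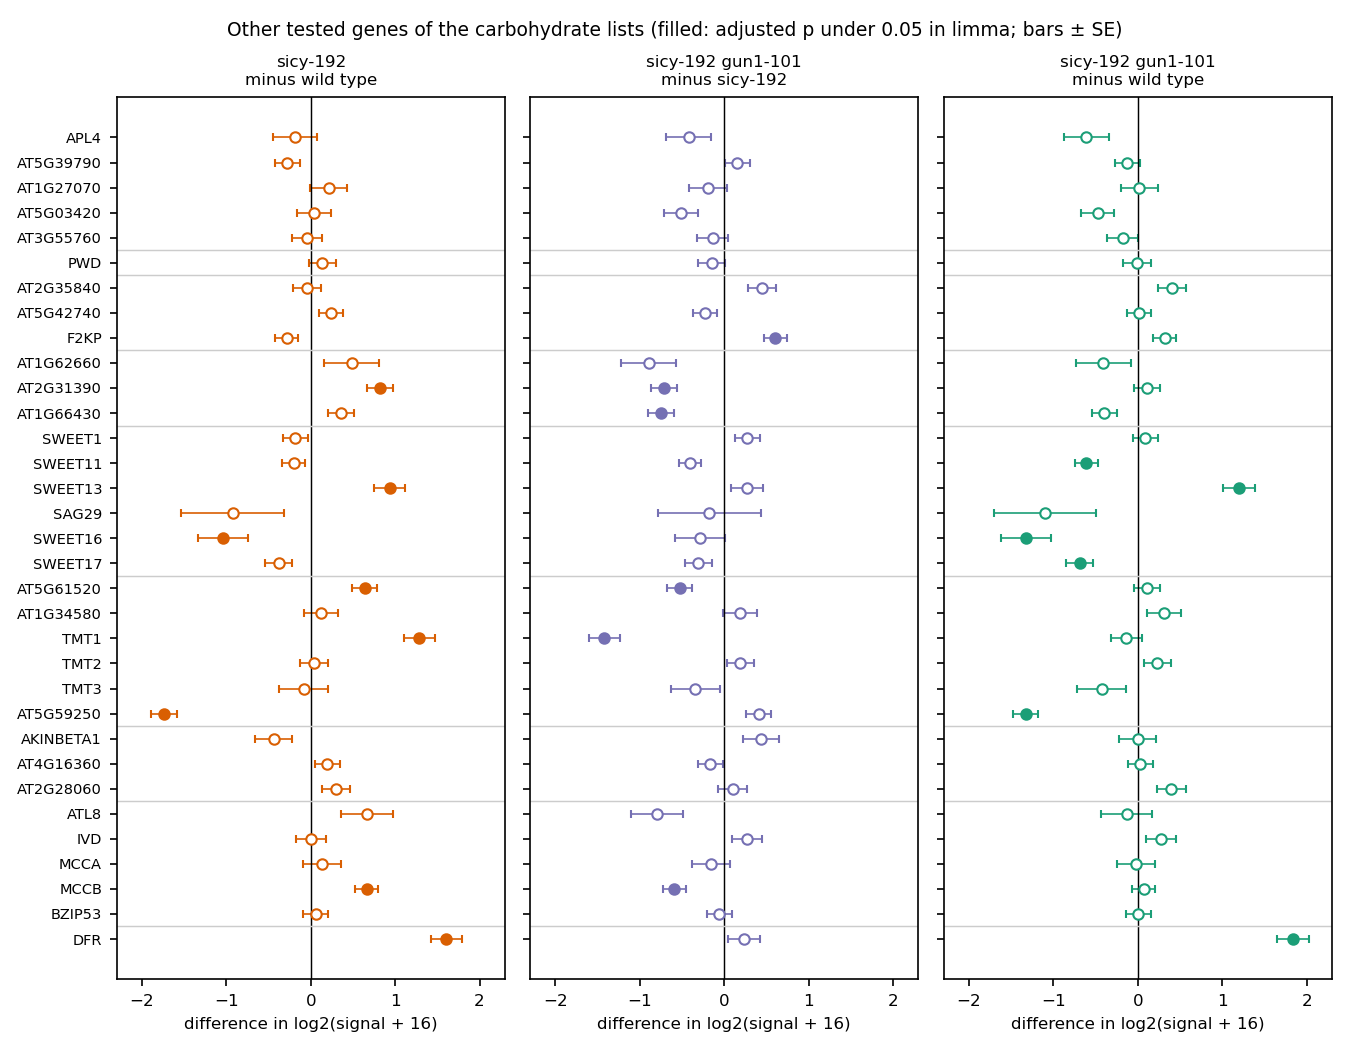
Each row is 1 of the 33 other tested genes, ordered by list with grey lines between lists, and each point its difference in log2(signal + 16) with ± SE, filled where the adjusted p in limma was under 0.05. TMT1 lies to the right in sicy-192 minus wild type and to the left in sicy-192 gun1-101 minus sicy-192, and AT5G59250 lies far to the left in both comparisons with wild type.

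Of the starch synthesis list 5 genes besides APL3 and SBE2.2 were tested, and limma called 0 of them in any comparison (0, 1 and 2 of them had an unadjusted p under 0.05 in the 3 comparisons in turn). Of all probe sets tested 23.0%, 20.7% and 30.1% were called, so little can be read from 5 genes. APL4, the other large subunit gene of ADP-glucose pyrophosphorylase with a named probe set, read 132 and 124 in the double mutant, 161 and 195 in sicy-192, and 151 and 273 in wild type. Its difference was -0.19 ± 0.26 for sicy-192 minus wild type (adjusted p = 0.643 in limma), whereas that of APL3 was 1.07. APL3 was chosen for its values, so nothing is read from this contrast. APL4 differed for the double mutant minus sicy-192 by -0.42 (adjusted p = 0.297) and for the double mutant minus wild type by -0.61 (adjusted p = 0.112, and under 0.05 without wild-type replicate 1, with 0.0224 as the lowest of all alternatives). The only other starch breakdown gene tested was PWD, which phosphorylates glucans before their degradation. It had differences of 0.14, -0.15 and -0.01 and no call in the 3 comparisons.

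Of 3 tested sucrose synthesis genes besides ATSPS4F, 1 was called. F2KP makes and degrades fructose 2,6-bisphosphate, the regulator of cytosolic fructose bisphosphatase on the way to sucrose. F2KP read 2867 and 2596 in the double mutant, 1747 and 1837 in sicy-192, and 2278 and 2091 in wild type. It rose by 0.60 ± 0.13 in the double mutant against sicy-192 (adjusted p = 0.0133 in limma), a call lost without double mutant replicate 1 and without sicy-192 replicate 1 (adjusted p up to 0.093). In sicy-192 against wild type it differed by -0.28 (adjusted p = 0.161), or by -0.48 after centring on the median (adjusted p = 0.039). Like ATSPS4F it had its lowest mean in sicy-192, but its highest was in the double mutant and not in wild type.

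In the list of sucrose cleavage and hexose kinases 3 genes were tested. AT1G62660 had differences of 0.49, -0.90 and -0.41 and no call in the 3 comparisons (adjusted p = 0.311, 0.084 and 0.374 in limma). AT2G31390 rose in sicy-192 against wild type by 0.82 ± 0.15 (adjusted p = 0.00509 in limma), with 1525 and 1609 in sicy-192 and 804 and 967 in wild type. It fell to 1023 and 883 in the double mutant (-0.71 against sicy-192, adjusted p = 0.0109). AT1G66430 read 1677 and 1813 in the double mutant and 2609 and 3336 in sicy-192. It fell by 0.75 in the double mutant (adjusted p = 0.0087), and its difference in sicy-192 against wild type was 0.36 (adjusted p = 0.123). The calls of both in the double mutant were lost without some of the arrays compared, with adjusted p up to 0.0909 for AT2G31390 and 0.0603 for AT1G66430. Between the double mutant and wild type AT2G31390 differed by 0.11 (adjusted p = 0.632) and AT1G66430 by -0.40 (adjusted p = 0.0795).

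Of 16 SWEET genes besides SWEET2, 15 were named on the array and 6 were tested. The other 9 were too dim, with no mean above 39.4 in any genotype. In none of the 6 did the difference between the double mutant and sicy-192 pass the threshold in limma (adjusted p between 0.0574 and 0.87), and 1 of them had an unadjusted p under 0.05. Of all probe sets tested 20.7% were called in that comparison. SWEET2 had 1.68 in that comparison, but it was chosen for its values, so nothing is read from this contrast. The largest of the 6 in size was -0.41 for SWEET11. Its adjusted p in limma fell under 0.05 with quantile normalization or with the replicate block (0.0186 at the lowest). SWEET13, a sucrose carrier of the plasma membrane, read 253 on both double mutant arrays, 230 and 187 in sicy-192, and 104 and 98.0 in wild type. It rose in sicy-192 (0.93 ± 0.19, adjusted p = 0.00769) and in the double mutant (1.2, adjusted p = 0.00203), both against wild type. Leaving out sicy-192 replicate 1 raised the adjusted p of the first call to 0.0608.

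SWEET16 and SWEET17, fructose carriers of the vacuolar membrane, had their highest means in wild type. SWEET16 read 67.7 and 46.5 in the double mutant, 85.8 and 60.3 in sicy-192, and 210 and 130 in wild type. Against wild type it fell in sicy-192 (-1.04, adjusted p = 0.0339 in limma, lost without some arrays or without the filter, up to 0.192) and in the double mutant (-1.33, adjusted p = 0.0102, up to 0.0692 without single arrays). SWEET17 read 744 and 708 in the double mutant, 926 and 878 in sicy-192, and 1343 and 1034 in wild type. It fell in the double mutant (-0.69, adjusted p = 0.0117, up to 0.0714 without single arrays) and differed by -0.38 in sicy-192 (adjusted p = 0.116), or by -0.57 after centring on the median (adjusted p = 0.029). The difference in sicy-192 was also called without wild-type replicate 2. SWEET11, a sucrose exporter of phloem loading, read 1696 and 1678 in the double mutant, 2347 and 2138 in sicy-192, and 2654 and 2513 in wild type. Against wild type it fell by 0.61 in the double mutant (adjusted p = 0.00865, up to 0.0521 without single arrays) and differed by -0.20 in sicy-192 (adjusted p = 0.292).

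SWEET1 had differences of -0.18, 0.27 and 0.09 and no call in the 3 comparisons. SAG29, also known as SWEET15, was not called either, although its mean differed by -0.92 in sicy-192 and by -1.10 in the double mutant, each against wild type. Its replicate 1 arrays read 643 in the double mutant, 828 in sicy-192 and 1395 in wild type, and its replicate 2 arrays 244, 243 and 541 in the same order. In every genotype SAG29 read higher on the replicate 1 array, and by more than the means of the genotypes differed on the log2 scale. With the replicate number as a block, its adjusted p was 0.000371 and 9.3e-05 in the same comparisons. Of the 7 tested SWEET genes, SWEET2 and SWEET1 had their lowest mean in sicy-192, the second without passing the test.

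**Figure D4:**
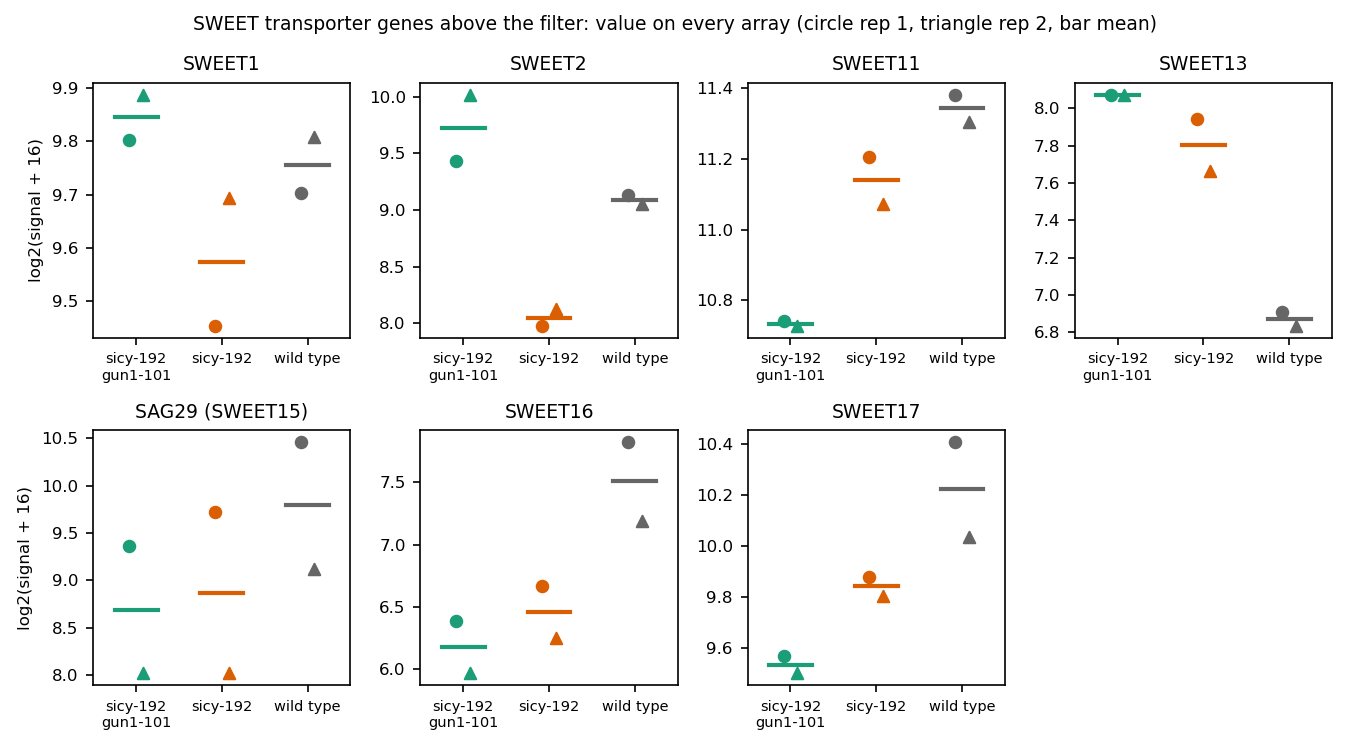
Each panel gives log2(signal + 16) on every array for 1 of the 7 tested SWEET genes (circle replicate 1, triangle replicate 2, bar mean), for sicy-192 gun1-101, sicy-192 and wild type. SWEET2 is lowest in sicy-192, SWEET13 is lowest in wild type, and SWEET11, SWEET16 and SWEET17 are highest in wild type.

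Of 6 other tested sugar transporter genes, 3 changed in sicy-192 against wild type (50%, against 23.0% of all probe sets), 2 rising and 1 falling. The share was 33.3% in the double mutant against sicy-192 (20.7% of all probe sets). It was 16.7% in the double mutant against wild type (30.1% of all probe sets). TMT1, a carrier that loads glucose and fructose into the vacuole, read 466 and 494 in the double mutant, 1177 and 1463 in sicy-192, and 452 and 617 in wild type. TMT1 rose in sicy-192 against wild type by 1.29 ± 0.18 (adjusted p = 0.00129 in limma) and fell in the double mutant against sicy-192 (-1.42, adjusted p = 0.0011). Its double mutant and wild-type arrays overlapped (-0.14, adjusted p = 0.614), and its calls held in all 16 alternatives. Like APL3, TMT1 was thus highest in sicy-192, with overlap between the other genotypes. TMT2 (0.04, 0.19 and 0.23) and TMT3 (-0.08, -0.34 and -0.43), its relatives, were not called in the 3 comparisons.

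AT5G61520, from the same list, was also highest in sicy-192, by a smaller change. It read 390 and 433 in the double mutant, 618 and 584 in sicy-192, and 370 and 391 in wild type. It rose by 0.64 in sicy-192 (adjusted p = 0.015 in limma) and fell by 0.53 in the double mutant against sicy-192 (adjusted p = 0.0338), and each call was lost under 5 of 16 alternatives (adjusted p up to 0.0802 and 0.178). AT5G59250 fell in sicy-192 against wild type (-1.74 ± 0.15, adjusted p = 9.13e-05), with 551 and 675 in sicy-192 and 2152 and 1996 in wild type. In the double mutant it read 835 and 797, so it was below wild type (-1.33, adjusted p = 0.000388). Its difference from sicy-192 was 0.41 (adjusted p = 0.0837), or 0.51 after centring on the median (adjusted p = 0.0482). ATSPS4F had 1.87 without such centring, but it was chosen for its values, so nothing is read from this contrast.

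None of the 3 tested genes of the trehalose phosphate and SnRK1 list was called by limma in any comparison (0, 0 and 1 of them had an unadjusted p under 0.05 in the 3 comparisons). Of all probe sets tested 23.0%, 20.7% and 30.1% were called, so little can be read from 3 genes. AKINBETA1, a beta subunit of the SnRK1 kinase, which is active when sugar is short, had -0.44 in sicy-192 against wild type (adjusted p = 0.175) and 0.43 in the double mutant against sicy-192 (adjusted p = 0.191). Among the genes listed as sugar-repressed, 5 besides AT3G15450 were tested. MCCB, a subunit of methylcrotonyl-CoA carboxylase of leucine breakdown, was the only one called. It rose in sicy-192 against wild type by 0.67 (adjusted p = 0.0079), while AT3G15450 had -2.09, and fell in the double mutant against sicy-192 (-0.59, adjusted p = 0.0144). MCCB read 1007 and 1044 in the double mutant, 1467 and 1651 in sicy-192, and 971 and 980 in wild type. Its calls were lost without some of the sicy-192 or double mutant arrays, and the first also after centring on the median (adjusted p up to 0.0584 and 0.0897). ATL8, IVD, MCCA and BZIP53 were not called, with differences between 0.01 and 0.67 in sicy-192 against wild type. None of these 5 had the large negative difference in sicy-192 that AT3G15450 had. AT3G15450 was chosen for its values, so nothing is read from this contrast. The list holds 25 loci besides it, of which 5 were named on the array.

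Of the sugar-induced list DFR was the only gene tested besides APL3. DFR, the dihydroflavonol reductase of anthocyanin synthesis, read 7901 and 8962 in the double mutant, 6797 and 7524 in sicy-192, and 1953 and 2808 in wild type. It rose against wild type by 1.60 in sicy-192 (adjusted p = 0.000375 in limma) and by 1.84 in the double mutant (adjusted p = 0.000237). Between the double mutant and sicy-192 it differed by 0.23 (adjusted p = 0.413), where APL3 differed by -1.0. APL3 was chosen for its values, so nothing is read from this contrast.

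The named genes most like each of the 6 were sought among 8012 others, by the root mean square difference between profiles over the 6 arrays. ATSPS4F was nearest to AT1G75460 (root mean square difference 0.17 log2 units), AT5G48490 (0.20) and AT1G21500 (0.27). AT1G75460 had mean signals of 633 in the double mutant, 153 in sicy-192 and 1665 in wild type, which gave -3.32 for sicy-192 minus wild type and 1.95 for the double mutant minus sicy-192. SWEET2 was nearest to AT3G49140 (0.15), AT3G44450 (0.16) and AT5G19850 (0.18), whose differences for the double mutant minus sicy-192 were 1.58, 1.37 and 1.5. AT3G15450 had no gene as close, with AT5G24210 (0.31), SAMTL (0.36) and AT5G56100 (0.40). All these genes were lowest in sicy-192, which follows from the search for like profiles and is no separate result. The same holds for the likeness of the differences given here and for the genes near APL3, SBE2.2 and DPE1.

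APL3 was nearest to AT4G40000 (0.12), AT3G27400 (0.17) and AT5G02050 (0.17), which had differences of 1.05, 1.13 and 0.97 for sicy-192 minus wild type. SBE2.2 had the closest neighbours of all, AT4G18975 (0.03), AT3G06750 (0.05) and AT4G09160 (0.05). DPE1 was nearest to AT5G12940 (0.07), CFM3A (0.08) and AT5G54630 (0.08). CFM3A, a plastid protein of intron splicing, had mean signals of 572 in the double mutant, 862 in sicy-192 and 1033 in wild type. Small differences, such as those of SBE2.2 and DPE1, keep the root mean square small by construction.

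**Figure D5:**
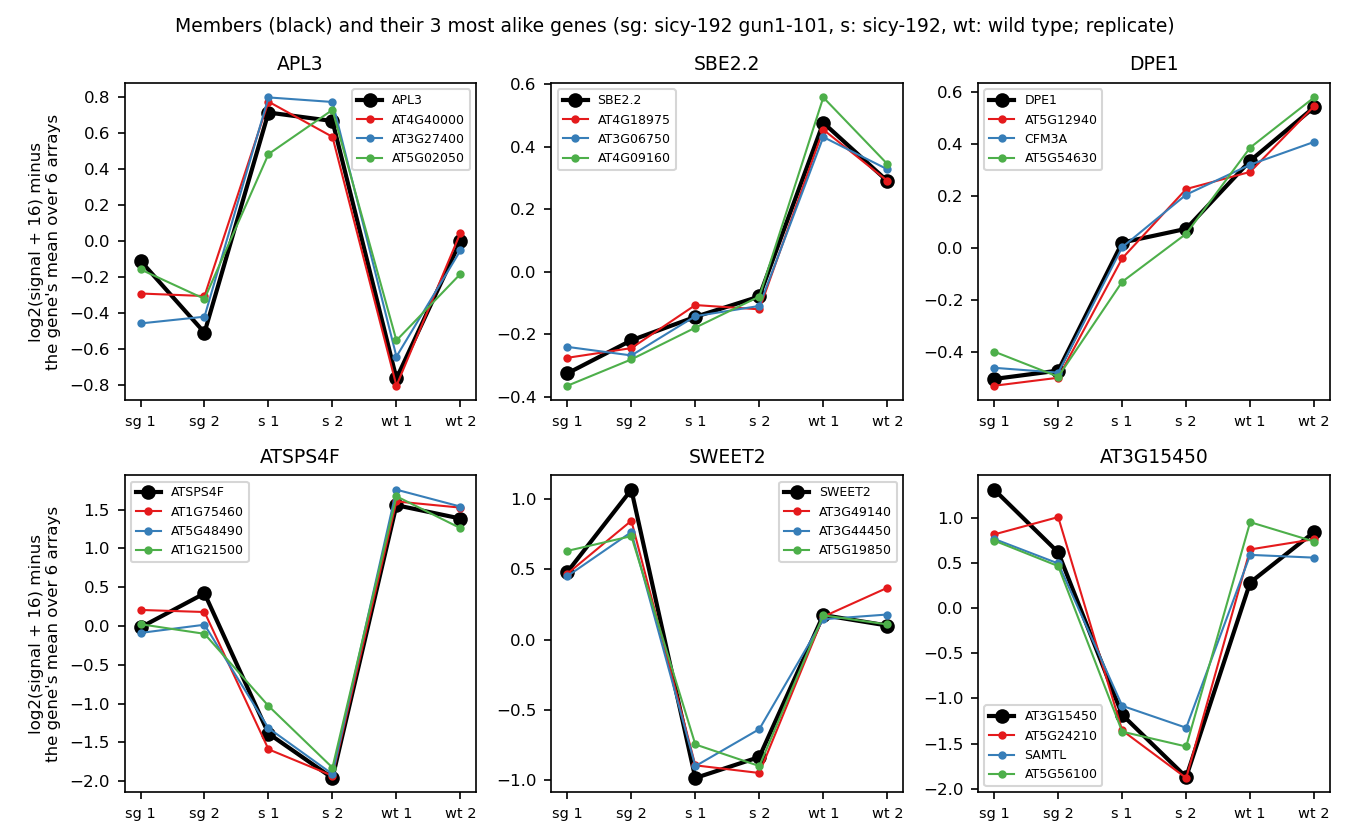
Each panel plots 1 of the 6 genes (black) with its 3 most alike named genes (colours) over the 6 arrays, as log2(signal + 16) minus the gene's own mean. ATSPS4F lies at -1.39 and -1.96 in sicy-192 and at 1.56 and 1.39 in wild type, whereas DPE1 lies between -0.50 and 0.54 on all arrays.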

How the data were processed

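Total RNA of cotyledons was labelled with biotin and hybridised to 1-colour Affymetrix arrays, 1 sample per array, per the labels' protocols. The deposited table holds 1 linear intensity for each probe set and array. The submitters' processing notes name GCOS, and its version and settings are not given in the sources used here. From the values, the authors scaled each array to a mean of 500 after trimming 2% at either end. Of 22810 rows 64 are controls. Of the other 22746 probe sets 13513 have a single gene in the gene table and 13436 matched a RefSeq locus, which gave the symbols. Coordinates were left out, as no build is named.

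The deposited intensities were brought to exactly that mean, and log2(intensity + 16) was used, which understates changes of dim probe sets. Probe sets above the 35th percentile of mean log2 value (14785) entered limma 3.58.1, run in R 4.3.3 (lmFit, eBayes with a variance trend, two-sided, 3 residual and 6.27 prior degrees of freedom), with Benjamini-Hochberg adjustment over all of them and calls at an adjusted p under 0.05. A gene with several probe sets was represented by the brightest. The fit was tested on simulated data. The 6 genes, the lists and the tests were chosen with earlier results of these data known. Named are the 6 genes, their tested relatives, up to 4 called genes per list and comparison, and the 3 most alike genes of each member. The labels call the replicates biological. Whether they were separate cultures is not said, so the p-values reflect only how far these samples spread, which may be technical. The small number of arrays limits the precision.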

Additional observations from a re-analysis of the deposited data

How the results depend on the processing

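Alternatives were offsets of 1 and 64, quantile normalization, centring on the median, the deposited scaling, no filter or a filter at the 50th percentile, no variance trend, only the 4 arrays compared, the replicate number as a block, every probe set of a gene called, and leaving out each array in turn. The differences of the 6 genes kept their sign in all of them, except APL3 in the double mutant against wild type (0.07), which was -0.053 with quantile normalization, -0.018 after centring on the median, and -0.31 to 0.45 without single arrays. The count of the 6 genes whose arrays were apart stayed at 6 between sicy-192 and wild type. Only quantile normalization, centring on the median and the deposited scaling could have lowered this count. It was 5 of 6 (without SBE2.2) between the double mutant and sicy-192 after centring on the median. Between the double mutant and wild type it was 4 to 6 without single arrays, and leaving out an array can only keep or raise it.

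Same-numbered arrays of different genotypes deviated from their means together (r = 0.374, 0.329 and 0.436 across probe sets), but the labels give the number no shared origin, so it was not a block in the main model. With the replicate number as a block, probe sets called numbered 5412 in place of 3402 for sicy-192 against wild type and 4917 in place of 3060 for the double mutant against sicy-192. The other pathway genes called numbered 13 in each of the 3 comparisons, in place of 8, 6 and 6. Among the genes named, the block added calls for SWEET17 (adjusted p = 0.0417), AT1G66430 (0.0409) and SAG29 in sicy-192 against wild type, for AT5G59250 (0.0371) and SWEET11 between the double mutant and sicy-192, and for AT1G66430 (0.0227), F2KP (0.0485), SAG29 and APL4 in the double mutant against wild type. Without single arrays, probe sets called ranged over 2043 to 2968, 1457 to 3262 and 2307 to 4322 (main count 4450) in the 3 comparisons, and pathway genes called over 5 to 9, 2 to 7 and 3 to 7. The share of called probe sets that were higher was 60%, 46.1% and 57.5%, and after centring on the median 31.4%, 59.8% and 45.1%. For the first comparison it was 48.1% with quantile normalization. With 2 arrays per genotype, small differences such as that of SBE2.2 between the double mutant and sicy-192 cannot be resolved.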
